A study of Mus musculus with 48 samples.

Results

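Gata4, Gata6, Zfpm1 and Zfpm2 were followed through gonadal somatic cells (GSCs) of mouse ovaries and through embryonic stem cells (ESCs) that were being turned into GSC-like cells (GSCLCs). The 4 genes were taken by symbol from the tables of gene counts and of FPKM, and by Ensembl identifier from the single-cell table. All 4 were present among the 22173 genes of the count table, the 13682 genes of the FPKM table and the 32285 genes of the single-cell table. The study sought small molecules that lead female ESCs toward the somatic cells of the E12.5 gonad, and 48 libraries of C57BL/6 mice or cells were deposited, of which 40 are used here.

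GATA4 and GATA6 are zinc finger transcription factors that bind GATA motifs in DNA. Gata4 is needed for the gonad to form and is expressed in the somatic cells of the gonad, where it acts on genes such as Amh and Star. Gata6 is a regulator of primitive endoderm, the early extraembryonic lineage, and is also expressed in granulosa and theca cells. Zfpm1 encodes FOG1 and Zfpm2 encodes FOG2, which do not bind DNA by themselves but attach to the amino-terminal zinc finger of a GATA factor and can turn it into an activator or a repressor. FOG1 is known as the partner of GATA1 in red blood cells and platelets, and FOG2 as the partner of GATA4 in heart and gonad. Both recruit the NuRD repressor complex, and both bind CtBP corepressors.

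GSCs of 4 stages were counted, with 2 libraries each, namely E12.5, E13.5 and E16.5 from female gonads and P6w from ovaries at 6 weeks. The GSCs of the embryo were the fraction that passed a magnetic column for SSEA1, a surface antigen of germ cells, so they hold every SSEA1-negative cell type of the gonad. FPKM were given for 3 libraries of cells from E12.5 female gonads (E12.5_GC) and for 3 libraries each of ESCs after 4, 6, 8 and 10 days with V580 (V580_D4 to V580_D10). V580 is the combination of vitamin C (Vc) and AM580, an agonist of retinoic acid receptor alpha. FPKM were also given for 2 libraries each of ESCs after 24 h and 48 h with Con, the control of the labels, with Vc, with AM580 or with V580. A single 10x library held cells after 6 days of V580. The study removed SSEA1-positive cells from V580 cultures before aggregation, but whether the V580 or E12.5_GC libraries were sorted in this way is not given in the sources used here, and the part of such a sort in their differences was not tested. No source states that libraries of a group came from separate cultures or animals, so the p-values measure the spread between these libraries, which may be technical.

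On GRCm38 (mm10) with the GENCODE vM21 annotation, Gata4 (ENSMUSG00000021944) lies at chr14:63198922-63271692 on the minus strand. Gata6 (ENSMUSG00000005836) lies at chr18:11052064-11085635, Zfpm1 (ENSMUSG00000049577) at chr8:122282141-122337251 and Zfpm2 (ENSMUSG00000022306) at chr15:40655035-41104592, all on the plus strand. The merged exons span 3904 bases for Gata4, 6508 for Gata6, 3503 for Zfpm1 and 9536 for Zfpm2. Exons of Gata6 share 93 bases with an antisense gene, 1010001N08Rik, and whether reads were counted by strand is not given in the sources used here. Exons of the other 3 genes share no base with another gene.

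The stage libraries held 12694769 to 22259044 counts. Transcripts of 4 Y-linked genes summed to 8.40 and 9.50 CPM (counts divided by the size of the library) in the E12.5 count libraries, which are labelled female, and to at most 0.254 CPM in the libraries of the other stages. The sum over a list of 4 genes of Sertoli cells, the supporting cells of the testis, did not follow them. It was 54.6 to 58.4 CPM at E12.5 and 22.7 to 23.5 CPM at E13.5. At E16.5 it was 137 to 139 CPM and at P6w 91.2 to 181 CPM. The Sertoli cell genes Amh and Dhh had means of 9.28 and 5.73 CPM at E12.5 against 0.609 and 0.545 CPM at E13.5. At E16.5 both were also lower than at E12.5 (log2 fold changes of -2.83 and -3.35), while Sox9 was higher (126.6 against 35.1 CPM). At P6w Amh and Dhh were higher than at E12.5, with 112.6 and 20.2 CPM. Whether the E12.5 libraries held male cells was not tested. A list of 5 liver genes summed to 118 to 124 CPM at E13.5 against 3.51 to 3.66 CPM at E12.5. Among the E12.5_GC libraries, replicate 1 stood apart for red blood cell transcripts, with 3 listed globin and heme genes summing to 4435 FPKM against 1693 and 1038 FPKM in the others. The part of these transcripts in the results was not tested.

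In GSCs of the ovary, Gata4 and Gata6 were detected at every stage and both were lower at P6w than at E12.5, Zfpm1 was highest at E16.5, and Zfpm2 was low at E13.5 and P6w. Values are CPM after TMM scaling, and changes are log2 fold changes with SE from edgeR's quasi-likelihood test, called at a Benjamini-Hochberg adjusted p below 0.05 over 16398 genes. The E13.5, E16.5 and P6w comparisons share the E12.5 libraries.

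The E12.5 libraries had 183 and 179 CPM of Gata4, the E13.5 libraries 172 and 153 CPM, the E16.5 libraries 142 and 127 CPM and the P6w libraries 120 and 119 CPM. The libraries of each stage lay below all those of the stage before it. Its log2 fold change against E12.5 amounted to -0.16 ± 0.12 (SE) at E13.5 (adjusted p = 0.28), -0.43 ± 0.12 at E16.5 (adjusted p = 0.0096) and -0.60 ± 0.12 at P6w (adjusted p = 0.00055). Gata4 thus passed the test at E16.5 and P6w but not at E13.5. Neighbouring stages did not differ beyond the test in Gata4, with adjusted p = 0.063 for E16.5 against E13.5 and 0.23 for P6w against E16.5.

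Gata6 had 120 and 111 CPM at E12.5, 68.2 and 75.9 CPM at E13.5, 100.1 and 79.0 CPM at E16.5 and 63.0 and 72.5 CPM at P6w. The E13.5 and P6w libraries overlapped, and those of E16.5 lay between these and E12.5. Gata6 fell by 0.68 on the log2 scale at E13.5 (SE 0.14, adjusted p = 0.0011) and fell by 0.77 at P6w (SE 0.14, adjusted p = 3.0e-04). At E16.5 its change of -0.36 ± 0.14 lay at the threshold (adjusted p = 0.050). With the sequencing lane in the model, since P6w shared a lane with 1 E16.5 library and with no E12.5 or E13.5 library, Gata6 at P6w was no longer called (-0.42, adjusted p = 0.066). Only E16.5 had libraries in both lanes, so the lane term rests on that pair of libraries. Lane and other differences between them cannot be told apart.

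Zfpm1 was the least abundant, with 2.08 and 2.12 CPM at E12.5, 2.95 and 3.54 CPM at E13.5, 6.71 and 4.59 CPM at E16.5 and 0.572 and 0.666 CPM at P6w. These rest on 45, 43, 58, 62, 155, 75, 7 and 8 counts, so the P6w level in particular has a wide counting error. No stage overlapped with another. Zfpm1 rose by 1.43 ± 0.33 from E12.5 to E16.5 (adjusted p = 0.0031), and from E16.5 to P6w it fell by 3.18 on the log2 scale (adjusted p = 1.0e-05). The rise from E13.5 to E16.5 was 0.81 (adjusted p = 0.042), a call lost under DESeq2 (adjusted p = 0.12). Zfpm1 was also lower at P6w than at E12.5 (-1.75 ± 0.44, adjusted p = 0.0035), a call that was lost with the lane in the model (-1.21, adjusted p = 0.14). At E13.5 the change from E12.5 was 0.62, with a 95% interval of -0.10 to 1.33. Transcripts of 5 red blood cell genes summed to 11506 to 12698 CPM at E12.5, 24862 to 27125 CPM at E13.5, 6578 to 10779 CPM at E16.5 and 193 to 214 CPM at P6w. This sum and Zfpm1 were both lowest at P6w, but the sum was highest at E13.5 and Zfpm1 at E16.5. The part of red blood cells in the level of Zfpm1 was not tested. In such whole-population libraries fewer cells of a type and less RNA per cell cannot be told apart.

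Zfpm2 had 23.9 and 21.3 CPM at E12.5, 9.04 and 7.02 CPM at E13.5, 24.8 and 16.7 CPM at E16.5 and 7.43 and 8.99 CPM at P6w. The E12.5 and E16.5 libraries overlapped, as did those of E13.5 and P6w, and the former pair of stages lay above the latter. Zfpm2 fell by 1.49 on the log2 scale at E13.5 (SE 0.22, adjusted p = 8.6e-05) and fell by 1.46 at P6w (SE 0.23, adjusted p = 7.0e-05), while its change at E16.5 was -0.12, with an interval of -0.57 to 0.33. From E13.5 to E16.5 it rose by 1.37 (adjusted p = 1.1e-04).

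**Figure D1:**
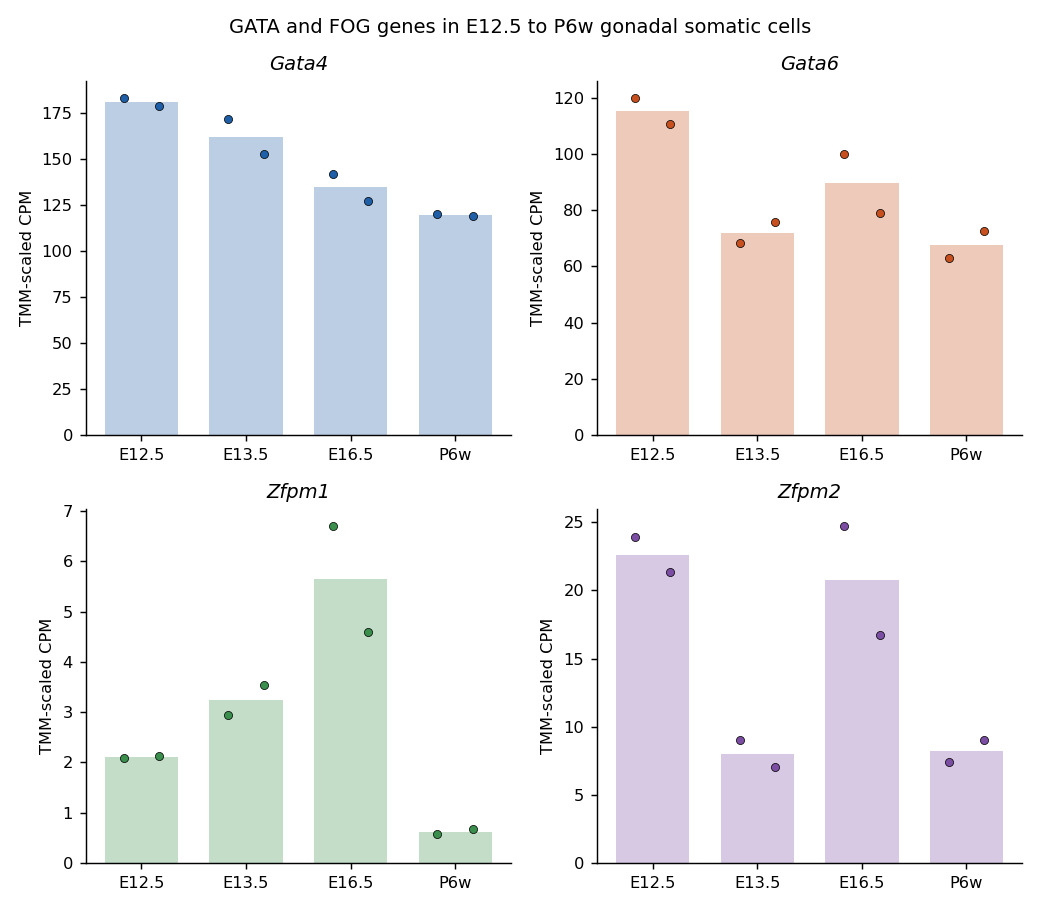
CPM after TMM scaling (vertical axes, linear from 0) of the 4 genes in GSCs, with the 4 stages in order. Bars are the mean of 2 libraries and points the libraries. Gata4 steps down from 183 and 179 to 120 and 119 CPM, Zfpm1 is highest at E16.5, and Zfpm2 at E12.5 and E16.5 lies above E13.5 and P6w.

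Many genes moved between stages, so the calls of the 4 genes are read against the share of all genes called. At E13.5, 2 of the 4 genes were called against E12.5 (Gata6 and Zfpm2, both lower), where 45.9% of all genes tested were called. At E16.5 it was 2 of 4 (Gata4 lower, Zfpm1 higher), where 37.6% of genes were called, and at P6w 4 of 4, all lower, where 52.9% of genes were called and 27.5% were called lower. Between later stages, 2 of 4 were called from E13.5 to E16.5 (54.1% of genes), 2 of 4 from E13.5 to P6w (59.7% of genes) and 3 of 4 from E16.5 to P6w (56.1% of genes).

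Per kilobase of exon, the count libraries held more Gata4 than Gata6 at each stage, with ratios of 2.55 to 2.70 at E12.5, 3.35 to 4.20 at E13.5, 2.37 to 2.68 at E16.5 and 2.74 to 3.18 at P6w. E13.5 libraries had the highest ratios. The ratio of Zfpm1 to Zfpm2 per kilobase was 0.237 to 0.271 at E12.5, 0.887 to 1.37 at E13.5, 0.738 to 0.748 at E16.5 and 0.202 to 0.209 at P6w. Per kilobase, Zfpm2 thus lay above Zfpm1 in these count libraries, with the exception of 1 E13.5 library. In the FPKM of E12.5_GC the order was the reverse, with ratios of 1.16 to 2.45. Those are other libraries as well as another measure, so libraries and measure cannot be told apart here.

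Relatives and partners of the 4 proteins were followed as a list of 17 genes, the other GATA factors and parts of the NuRD and CtBP complexes. Of all 16398 genes tested, 3908 rose and 3622 fell from E12.5 to E13.5, 3364 and 2796 to E16.5 and 4162 and 4511 to P6w. At E13.5, 3 rose and 7 fell, with a median log2 fold change of -0.18 against 0.03 over all genes tested, and at E16.5, 4 rose and 6 fell (median -0.12, all genes -0.01). At P6w, 2 rose and 9 fell (median -0.47, all genes -0.04). Gata1, the red blood cell factor that FOG1 serves, rose from 9.06 ± 1.16 (SD) to 39.2 ± 1.96 CPM at E13.5, and to 51.9 ± 4.02 CPM at E16.5. Gata2, which acts in blood stem and endothelial cells, rose from 4.51 to 11.9 CPM at E16.5 and Gata3, a factor of T cells and kidney ducts, from 20.5 to 88.4 CPM. Trps1, an atypical GATA repressor, fell from 37.1 to 13.3 CPM at E13.5 and to 9.78 CPM at P6w. The NuRD subunit Gatad2b fell from 93.6 to 41.4 CPM at E13.5, and the NuRD helicase Chd4 fell from 754 to 364 CPM at P6w. Gata5, a factor of endoderm and heart, had group means of only 0.165 to 1.17 CPM.

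The list of 22 gonadal genes tied to Gata4 had 5 genes that rose and 11 that fell at E13.5 (median -0.48), 4 and 11 at E16.5 (median -0.42), and 11 and 8 at P6w (median 0.22). Amh fell by 3.90 on the log2 scale at E13.5 and Dhh, another Sertoli cell gene, fell by 3.39, in the comparison in which the E12.5 libraries held Y-linked transcripts. At P6w the steroid enzymes of mature ovaries rose, Cyp11a1 from 3.96 to 1250 CPM, Cyp19a1 from 0.397 to 311 CPM and Hsd3b1 from 23.2 to 5891 CPM. Nr5a1, which encodes SF1, a partner of GATA4 in the gonad, had group means of 208, 217, 100.1 and 321 CPM from E12.5 to P6w. Wt1 had group means of 535, 192, 283 and 32.2 CPM, and Foxl2, a granulosa factor, 6.21, 13.7, 8.71 and 21.3 CPM.

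Blood genes tied to Gata1 and FOG1 were all measured at the stages. Of 14, 9 rose and 0 fell at E13.5 (median 1.37), 10 rose and 2 fell at E16.5 (median 1.65), and 0 rose and 13 fell at P6w (median -2.74). The erythroid factor Klf1 rose from 26.9 to 160.1 CPM at E13.5 and Gfi1b, a repressor of red cells and platelets, from 2.06 to 20.4 CPM at E16.5. Embryonic globin Hbb-y fell from 9770 to 284 CPM at E16.5. Of 20 extraembryonic endoderm genes, 16 were tested, and at E13.5 there were 4 that rose and 6 that fell, against 2 and 1 for E16.5 and 4 and 9 for P6w, with medians of -0.18, -0.06 and -1.29. Those that rose most at E13.5, Ttr, Afp and Apoa1, are also liver genes. Of 14 heart genes, 8 were tested, and at E13.5 there were 1 that rose and 1 that fell, against 0 and 5 for E16.5 and 1 and 4 for P6w, with medians of 0.16, -1.01 and -2.18.

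Along the V580 days, Gata4 rose at each step yet stayed below E12.5_GC to day 10, Gata6 came within 0.25 log2 units of E12.5_GC from day 8, Zfpm1 was above E12.5_GC from day 6, and Zfpm2 peaked at day 8. Values are FPKM as deposited, and changes are differences of log2(FPKM+1) from limma, a scale that understates the change of low genes. The 4 days share the E12.5_GC libraries, and 11512 genes were tested.

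Gata4 had 5.23, 4.75 and 4.84 FPKM at day 4, 17.5, 15.96 and 17.5 FPKM at day 6, 30.8, 29.9 and 29.2 FPKM at day 8 and 46.4, 45.7 and 46.3 FPKM at day 10. The days did not overlap. In E12.5_GC it had 135, 147 and 148 FPKM, above every V580 library. Gata4 rose by 1.60 from day 4 to day 6, by 0.78 to day 8 and by 0.61 to day 10 (SE 0.06, adjusted p from 4.0e-11 to 3.6e-06). Against E12.5_GC it was lower by a log2 difference of -4.60 (day 4), -3.00 (day 6), -2.22 (day 8) and -1.61 (day 10) (SE 0.06, adjusted p from 6.4e-17 to 4.2e-12).

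Gata6 had 7.23, 7.93 and 6.91 FPKM at day 4, 19.2, 19.8 and 20.9 FPKM at day 6, 40.2, 37.0 and 37.0 FPKM at day 8 and 39.5, 37.8 and 40.2 FPKM at day 10. E12.5_GC held 41.8, 44.2 and 50.3 FPKM. Days 8 and 10 overlapped with each other, and neither overlapped with E12.5_GC. Gata6 rose by 1.33 to day 6 and by 0.90 to day 8 (SE 0.07), and the step to day 10 was 0.04 with an interval of -0.12 to 0.20. Against E12.5_GC its difference was -1.14 ± 0.07 at day 6 (adjusted p = 2.8e-09), -0.25 ± 0.07 at day 8 (adjusted p = 0.0088) and -0.21 ± 0.07 at day 10 (adjusted p = 0.021). The calls at days 8 and 10 were lost when only the 2 groups compared entered the fit (adjusted p = 0.091 and 0.12).

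Zfpm1 had 15.3, 14.3 and 12.7 FPKM at day 4, 17.7, 17.2 and 18.1 FPKM at day 6, 17.9, 15.6 and 15.5 FPKM at day 8 and 21.1, 17.8 and 22.2 FPKM at day 10. In E12.5_GC it had 15.3, 12.4 and 10.4 FPKM, where the red blood cell sum was 4435, 1693 and 1038 FPKM. In the V580 libraries of these days that sum was at most 0.739 FPKM, and its part in the level of Zfpm1 was not tested. Zfpm1 is thus the gene of the 4 with the smallest range over these groups. It was above E12.5_GC by 0.46 ± 0.12 at day 6 (adjusted p = 0.0026), by 0.35 at day 8 (adjusted p = 0.017) and by 0.65 at day 10 (adjusted p = 1.6e-04). At day 4 the groups overlapped (0.15, interval -0.09 to 0.40). Without replicate 1 of E12.5_GC, Zfpm1 was called at day 4 as well (0.29, adjusted p = 0.028), and the call at day 8 was lost when only the 2 groups compared entered the fit (adjusted p = 0.079).

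Zfpm2 had 0.180, 0.208 and 0.188 FPKM at day 4, 2.45, 2.79 and 2.62 FPKM at day 6, 6.94, 6.68 and 7.10 FPKM at day 8 and 4.51, 5.24 and 4.66 FPKM at day 10. E12.5_GC held 6.25, 5.34 and 8.93 FPKM, a range that contained all day 8 values. Zfpm2 rose by 1.60 ± 0.12 to day 6 and by 1.13 ± 0.12 to day 8, and fell by 0.45 on the log2 scale to day 10 (adjusted p = 0.0096). At day 8 its difference from E12.5_GC was 0.04, with an interval of -0.22 to 0.29. At day 10 it lay below E12.5_GC (-0.41 ± 0.12, adjusted p = 0.0068), a call lost when only those 2 groups entered the fit (adjusted p = 0.067).

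**Figure D2:**
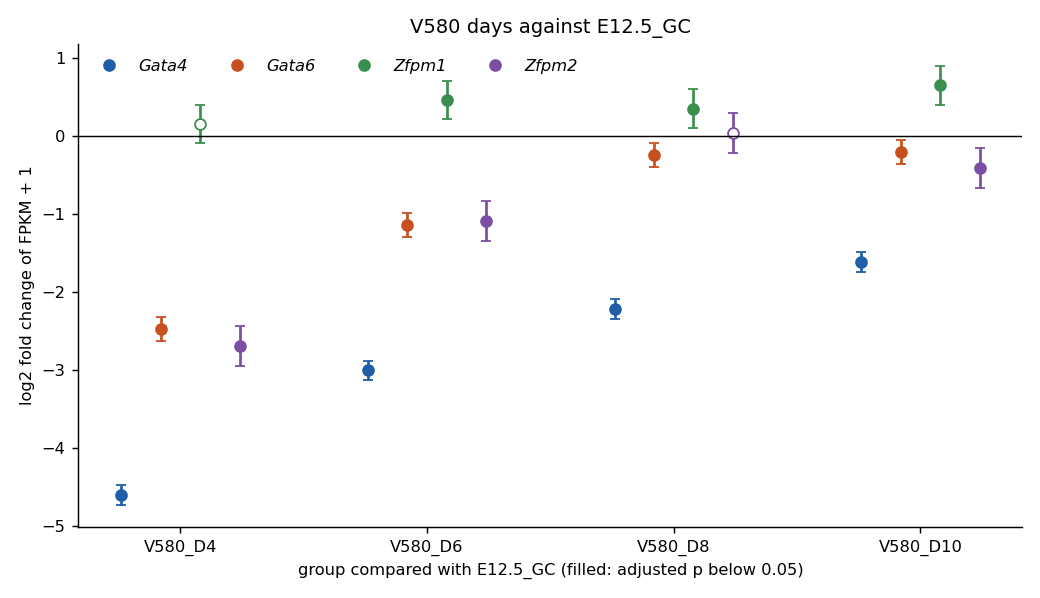
Difference of log2(FPKM+1) from E12.5_GC (vertical axis, 0 is the E12.5_GC mean) of the 4 genes at V580 days 4, 6, 8 and 10, with 95% intervals of 3 libraries a group. Filled points have an adjusted p below 0.05. Gata4 climbs from -4.60 to -1.61, Gata6 levels off near 0 from day 8, and Zfpm1 lies above 0 from day 6.

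Against E12.5_GC, 3 of the 4 genes were called on day 4, 4 on day 6, 3 on day 8 and 4 on day 10, where 71.6%, 67%, 63.2% and 69.5% of all genes tested were called. With a change of at least 2-fold in FPKM+1 as well, it was 3, 3, 1 and 1 of 4, where 20.4%, 15.2%, 13% and 16.4% of genes were called. From day 4 to day 6, 4 of 4 rose (44.9% of genes called, 21.9% higher), with 3 of them at least 2-fold in FPKM+1 (5.08% of genes). The rise of Zfpm1 among these (0.31, adjusted p = 0.042) was lost without any of 8 of the 15 libraries. From day 6 to day 8, 3 of 4 rose (41.1% of genes called, 20.3% higher), with 1 at least 2-fold in FPKM+1 (2.55% of genes), and from day 8 to day 10, 1 rose and 1 fell (34.5% of genes called). Over the whole span from day 4 to day 10, 4 of 4 rose (64.5% of genes called, 31.3% higher), Gata4 by 2.99, Gata6 by 2.27, Zfpm1 by 0.50 and Zfpm2 by 2.28.

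The balance between the 2 GATA factors differed from that of the gonad on every V580 day. The ratio of Gata4 to Gata6 in FPKM was 2.95 to 3.34 in E12.5_GC, against 0.599 to 0.724 at day 4, 0.807 to 0.915 at day 6, 0.766 to 0.806 at day 8 and 1.15 to 1.21 at day 10. No V580 day overlapped with E12.5_GC. The ratio of Zfpm1 to Zfpm2 fell from 67.5 to 85.4 at day 4 to 6.17 to 7.23 at day 6 and 2.18 to 2.57 at day 8, was 3.40 to 4.75 at day 10 and was 1.16 to 2.45 in E12.5_GC. These ratios have no test.

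**Figure D3:**
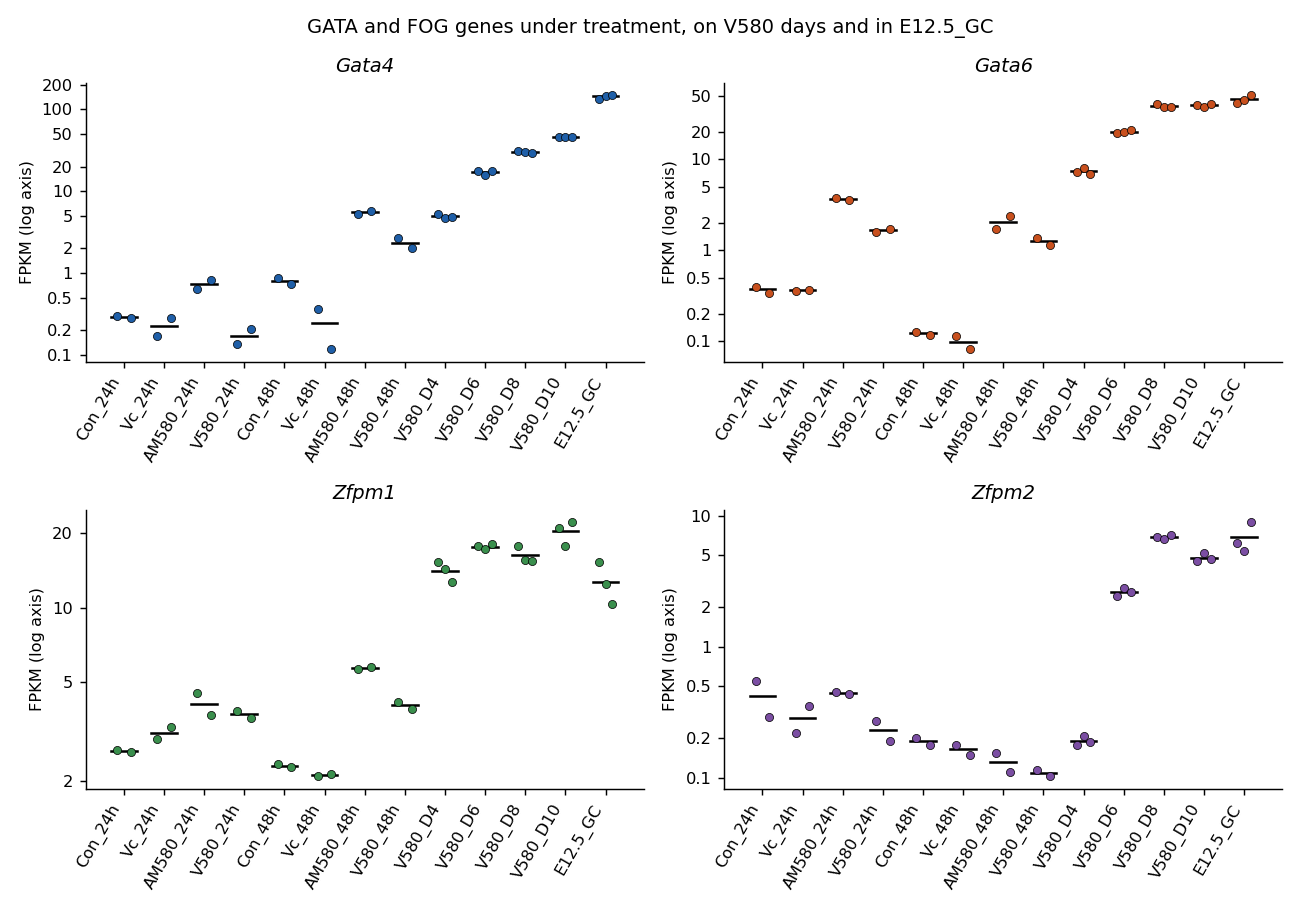
FPKM of the 4 genes on a log axis in 13 groups, from Con, Vc, AM580 and V580 at 24 h and 48 h through V580 days 4 to 10 to E12.5_GC. Points are libraries and lines group means. Gata4 spans 0.118 to 148 FPKM, whereas Zfpm1 spans 2.09 to 22.2 FPKM.

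The partners gave the following picture against E12.5_GC, where 4029 of the 11512 genes tested rose and 3689 fell at day 6, and 4178 rose and 3823 fell at day 10. Of the 17 genes, 16 were tested, and 9 rose and 3 fell at day 6 (median 0.25, all genes 0.03), while 5 rose and 6 fell at day 10 (median -0.11, all genes 0.03). Gata2 was at 33.6 ± 2.17 (SD) FPKM at day 6 and 20.6 ± 0.38 at day 10 against 3.01 ± 1.17 in E12.5_GC. Gata3 was at 6.96 FPKM at day 6 against 1.08. Gata5 was at 17.5 ± 0.53 FPKM at day 10 against 0.636 ± 0.26 in E12.5_GC. The NuRD subunit Mta3 was lower at day 6 (9.24 against 19.4 FPKM) and the corepressor Ctbp1 at day 10 (35.5 against 61.8 FPKM).

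Gonadal genes tied to Gata4 were mostly lower than in E12.5_GC. Of 22, 17 were tested, and 3 rose and 14 fell at day 6 (median -2.48), and 0 rose and 15 fell at day 10 (median -2.00). Nr5a1 was at 0.0377 FPKM at day 6 and 0.00555 FPKM at day 10 against 78.2 ± 14.8 FPKM in E12.5_GC, and Lhx9, which is needed for the early gonad, at 0.126 and 0.0314 FPKM against 35.7. Kitl, the ligand of the germ cell receptor Kit, was at 2.32 FPKM at day 6 against 119, and Amhr2, the receptor of AMH, at 5.53 FPKM at day 10 against 151. Wt1 had group means of 22.8, 45.1, 59.98 and 52.4 FPKM from day 4 to day 10 and 72.5 FPKM in E12.5_GC, and Foxl2 1.41, 3.21, 3.03 and 4.94 FPKM against 23.2. The 6 granulosa markers summed to 50.4 to 132 FPKM in the V580 libraries and 448 to 623 FPKM in E12.5_GC.

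Extraembryonic endoderm genes tied to Gata6 were higher. Of 20, 16 were tested, and 10 rose and 3 fell at day 6 (median 0.74), and 13 rose and 0 fell at day 10 (median 1.30). Foxa2, an endoderm factor, was at 17.5 FPKM at day 6 and 7.80 FPKM at day 10 against 0.190 in E12.5_GC. Cubn, a receptor for uptake in visceral endoderm and kidney, was at 6.22 FPKM at day 6 against 0.0801, and Sox17 at 11.7 FPKM at day 10 against 2.63. The 6 listed markers of extraembryonic endoderm summed to 58.2 to 84.4 FPKM in the V580 libraries and 27.6 to 36.6 FPKM in E12.5_GC, and their part in the levels of Gata4 and Gata6 was not tested. Of the heart genes, 4 were tested, with 3 higher and 1 lower at day 6 and 2 and 1 at day 10 (medians 1.17 and 0.63). All 8 blood genes tested fell on both days, among them Hba-a1 with 2190 ± 1633 FPKM in E12.5_GC.

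In the first 2 days of culture, Gata6 and Zfpm1 rose with AM580 at 24 h and at 48 h, and Gata4 rose mainly at 48 h, while V580 gave lower levels of Gata4 and Gata6 than AM580 alone. These libraries still held pluripotency genes, with 5 markers summing to 1999 to 4045 FPKM against 194 to 220 FPKM at day 4. Levels are low, so that a difference of log2(FPKM+1) depends on the pseudocount. Of 10644 genes tested, 3 were members, since Zfpm2 did not reach 1 FPKM in 2 libraries. The comparisons with Con at each time share the Con libraries.

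Gata4 had 0.2996 and 0.287 FPKM in Con at 24 h, 0.1698 and 0.280 FPKM in Vc, 0.647 and 0.816 FPKM in AM580 and 0.138 and 0.206 FPKM in V580. At 48 h it had 0.863 and 0.742 FPKM in Con, 0.368 and 0.118 FPKM in Vc, 5.32 and 5.72 FPKM in AM580 and 2.65 and 2.05 FPKM in V580. At 48 h no groups overlapped, in the order AM580, V580, Con and Vc. Gata4 rose with AM580 by 0.42 ± 0.10 at 24 h (adjusted p = 0.012) and by 1.85 ± 0.10 at 48 h (adjusted p = 1.5e-09), and with V580 by 0.89 ± 0.10 at 48 h (adjusted p = 4.2e-06). With V580 at 24 h its difference from Con was -0.14, with an interval of -0.36 to 0.08. With Vc alone it fell below Con at 48 h (-0.54 ± 0.10, adjusted p = 0.0031). V580 was below AM580 at 24 h (-0.56, adjusted p = 0.0019) and at 48 h (-0.97, adjusted p = 1.4e-05).

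Gata6 had 0.4003 and 0.343 FPKM in Con at 24 h, 0.356 and 0.370 FPKM in Vc, 3.79 and 3.58 FPKM in AM580 and 1.58 and 1.72 FPKM in V580. At 48 h it had 0.126 and 0.119 FPKM in Con, 0.116 and 0.0823 FPKM in Vc, 1.69 and 2.37 FPKM in AM580 and 1.36 and 1.15 FPKM in V580. AM580 and V580 lay above Con and Vc at both times. Gata6 rose with AM580 by 1.77 ± 0.09 at 24 h (adjusted p = 3.6e-09) and by 1.42 ± 0.09 at 48 h (adjusted p = 5.7e-09), and with V580 by 0.95 ± 0.09 and 1.00 ± 0.09 (adjusted p = 1.6e-06 and 2.7e-07). V580 was below AM580 at 24 h (-0.82, adjusted p = 3.5e-05) and at 48 h (-0.42, adjusted p = 0.0040). From 24 h to 48 h Gata6 fell in all 4 media, by a log2 difference of -0.29 in Con, -0.31 in Vc, -0.64 in AM580 and -0.24 in V580 (adjusted p from 1.6e-05 to 0.029). In FPKM the ratio of 48 h to 24 h was 0.329 in Con, 0.273 in Vc, 0.551 in AM580 and 0.759 in V580. Which medium had the largest fall thus depends on the pseudocount. The fall in V580 was not called after centring each library on its median (-0.13, adjusted p = 0.21), and that scaling moved the median of all genes in this comparison by 0.11.

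Zfpm1 had 2.66 and 2.60 FPKM in Con at 24 h, 2.96 and 3.30 FPKM in Vc, 4.51 and 3.68 FPKM in AM580 and 3.81 and 3.60 FPKM in V580. At 48 h it had 2.34 and 2.26 FPKM in Con, 2.09 and 2.14 FPKM in Vc, 5.68 and 5.79 FPKM in AM580 and 4.17 and 3.91 FPKM in V580. AM580 and V580 overlapped at 24 h but not at 48 h. Zfpm1 rose with AM580 by 0.48 ± 0.07 at 24 h (adjusted p = 3.2e-04) and by 1.03 ± 0.07 at 48 h (adjusted p = 2.5e-08), and with V580 by 0.37 and 0.61 (adjusted p = 0.0014 and 6.4e-06). V580 was below AM580 at 48 h (-0.42, adjusted p = 0.0010), and at 24 h the difference was -0.11 with an interval of -0.27 to 0.05. Red blood cell transcripts summed to at most 0.555 FPKM in these libraries. Zfpm2 lay between 0.103 and 0.549 FPKM in all 16 libraries and was not tested.

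With Vc alone, limma called 0 of the 3 genes tested at 24 h, where 13.6% of genes were called and Zfpm1 had an unadjusted p of 0.023, and 1 of 3 at 48 h, Gata4, where 12.4% of genes were called. With AM580, 3 of 3 were called at 24 h (14.8% of genes called) and 3 of 3 at 48 h (57% of genes called), and with V580, 2 of 3 at 24 h (29% of genes called) and 3 of 3 at 48 h (57.1% of genes called). With a change of at least 2-fold in FPKM+1 as well, AM580 called 1 of 3 at 24 h (0.404% of genes) and 3 of 3 at 48 h (3.23% of genes), and V580 called 0 of 3 at 24 h (0.695% of genes) and 1 of 3 at 48 h (3.18% of genes). At these low levels the ratio of mean FPKM is larger than that of FPKM+1. In FPKM, the ratio of V580 to Con was 4.44 for Gata6 at 24 h and 2.93 for Gata4 at 48 h, and that of AM580 to Con was 2.49 for Gata4 at 24 h. Between V580 and AM580, 2 of 3 were called at 24 h (14.8% of genes) and 3 of 3 at 48 h (19.2% of genes). Against Vc, V580 called 1 of 3 at 24 h (16.9% of genes) and 3 of 3 at 48 h (53.8% of genes). From 24 h to 48 h, 2 of 3 were called in Con, 2 in Vc, 3 in AM580 and 2 in V580, where 66%, 67.7%, 65.7% and 66.8% of genes were called.

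Whether Vc and AM580 together gave the sum of their single effects was tested as an interaction on the log2 scale. At 24 h Gata6 fell short of the sum by -0.81 ± 0.13 (adjusted p = 0.035), 1 of 4 genes called among all tested (0.0376% of genes), and Gata4 (-0.48, adjusted p = 0.68) and Zfpm1 (-0.30, adjusted p = 0.85) did not pass. The call of Gata6 was lost under 4 of the alternatives, among them a pseudocount of 0.1 (adjusted p = 0.25), and without any of 14 of the 16 libraries in turn. At 48 h the values were -0.42, -0.39 and -0.33 for Gata4, Gata6 and Zfpm1, and limma called 0 of the 3 (3.61% of genes called), though all 3 had an unadjusted p below 0.05 (0.0059 to 0.011). With a pseudocount of 0.1 the value of Gata4 turned to 0.29 (adjusted p = 0.83), so its direction depends on the pseudocount. The AM580 effect differed between 48 h and 24 h for 3 of 3 genes (35% of genes called), by 1.44 for Gata4, -0.35 for Gata6 and 0.54 for Zfpm1, and the V580 effect for Gata4 alone (33.9% of genes called), by 1.03. The AM580 difference of Gata6 was called at an adjusted p of 0.044 and turned to 0.24 with a pseudocount of 0.1 (adjusted p = 0.47), and in FPKM its ratio of AM580 to Con was 9.91 at 24 h and 16.6 at 48 h. With that pseudocount the V580 effect differed for Gata6 as well (0.71, adjusted p = 0.033).

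**Figure D4:**
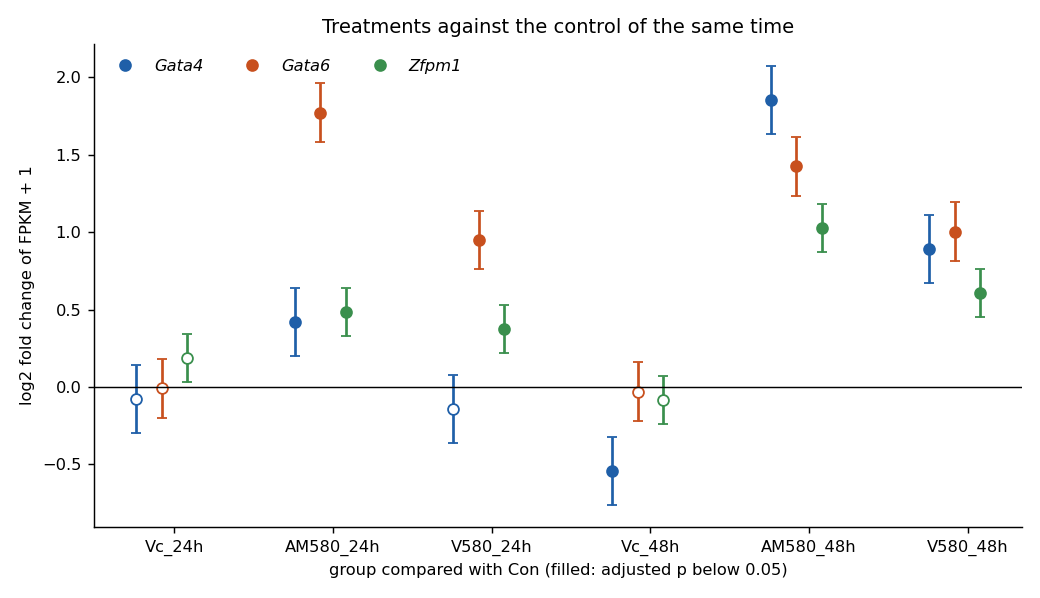
Difference of log2(FPKM+1) from Con of the same time (vertical axis) for Gata4, Gata6 and Zfpm1 with Vc, AM580 and V580 at 24 h and 48 h, with 95% intervals of 2 libraries a group. Filled points have an adjusted p below 0.05. AM580 gives 0.42 and 1.85 for Gata4 and 1.77 and 1.42 for Gata6, with V580 lower at both times.

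With V580 at 48 h against Con, 14 of the 17 relatives and partners were tested, and 3 rose and 6 fell (median -0.05, all genes -0.02), where 2752 of the 10644 genes tested rose and 3326 fell. The corepressor Ctbp2 fell from 55.9 to 30.3 FPKM, the NuRD subunit Mta2 from 62.3 to 47.2 FPKM and the deacetylase Hdac2 from 48.2 to 33.9 FPKM. Of the extraembryonic endoderm genes 15 were tested, and 11 rose and 1 fell (median 0.48). The basement membrane genes Lamc1, Col4a1 and Col4a2 rose by 0.48, 0.59 and 0.78. Against AM580, V580 had 0 of these 15 genes higher and 12 lower (median -0.47, all genes 0.00), where 906 of the 10644 genes were higher and 1140 lower. Of 22 gonadal genes 10 were tested, with 5 higher and 1 lower than Con (median 0.18), among them Wt1 with 14.2 against 10.1 FPKM. The 6 extraembryonic endoderm markers summed to 10.3 to 12.3 FPKM in V580, 20.2 to 20.7 FPKM in AM580 and 5.22 to 5.84 FPKM in Con at 48 h. Their part in the changes of Gata4 and Gata6 was not tested. Of the heart genes 4 were tested, with 1 higher and 1 lower, and of the blood genes 2, with Lmo2 higher (5.66 against 3.06 FPKM).

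From V580 at 48 h to V580 at day 4, Gata4 rose by 0.83 ± 0.08, Gata6 by 1.89 ± 0.08 and Zfpm1 by 1.58 ± 0.11 (adjusted p from 1.1e-15 to 2.7e-09), and Zfpm2 stood at 0.103 to 0.115 and 0.180 to 0.208 FPKM (0.10, adjusted p = 0.42). Here 3 of 4 were called, where 74.1% of genes were called. Whether these libraries were prepared together is not given in the sources used here, so batch and time cannot be told apart.

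The E12.5 gonad was measured in both bulk tables, and Zfpm1 was the gene of the 4 for which they differed most. In CPM per kilobase of exon, E12.5 held 46.4 of Gata4, 17.7 of Gata6, 0.601 of Zfpm1 and 2.37 of Zfpm2. The authors' FPKM in E12.5_GC averaged 144, 45.4, 12.7 and 6.84. The ratio was 3.10 for Gata4, 2.56 for Gata6, 2.88 for Zfpm2 and 21.1 for Zfpm1, where the median over 9851 genes with at least 1 in both measures was 1.18. Zfpm1, at 0.601 in the counts, is not among those 9851 genes. In the counts Zfpm1 lay below Zfpm2 and in E12.5_GC above it. Zfpm1 ranked at the 18.5th percentile of 13647 shared genes in the counts and at the 72.3rd in FPKM. Its annotated transcripts are 64.6% G and C, above 99.7% of the 9851 genes, against 56.0% for Gata4, 57.1% for Gata6 and 44.7% for Zfpm2. With the 9851 genes cut into 10 equal bins by that percentage, those richest in G and C had a median ratio of 1.51, and the other bins 0.98 to 1.31. The part of base composition, of the counting and of the cells in this was not tested, and levels of Zfpm1 are compared here within a table only.

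The genes whose pattern over the 13 FPKM groups was nearest to each of the 4 were found by the root mean square difference of group means of log2(FPKM+1), each gene centred on its own mean, among 13682 genes. Nearest to Gata4 were Igf2 (0.72), Mfap2 (0.73), Mgst1 (0.75), Wnt4 (0.76) and Gas6 (0.76), and Gata6 came in place 11 (0.82). Nearest to Gata6 were Pdgfra (0.51), Zbtb7c (0.56), Creb3l2 (0.60), Jun (0.61) and Tmem176a (0.61), and Gata4 came in place 60. Zfpm1, with a narrow range, had Mapkapk2 (0.19), Grina (0.20), Stat5b (0.20), Jak2 (0.21) and Gdpd5 (0.21), and Zfpm2 had Smarca2 (0.19), Irf5 (0.19), Kif26b (0.24), Lgi3 (0.24) and St8sia1 (0.25). Over the 4 stages the genes among the 3 nearest on log2(CPM+1) included Smc1a and Sec14l4 for Gata4, Prdm11, Cald1 and Nup155 for Gata6, Ino80b, Pak1 and Acot2 for Zfpm1, and Notch1, Epha4 and Tet2 for Zfpm2. Groups share libraries and few points underlie these distances, which are descriptions.

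The 10x library of day 6 of V580 held 15412 barcodes, of which 15315 were kept for having 200 genes or more and no more than 40% mitochondrial counts, with a median of 9281 UMIs. It is 1 sample, so no test was made, and the intervals are exact 95% intervals that cover counting error only. A UMI of Gata4 was found in 19.5% of cells (18.9 to 20.2), of Gata6 in 50.8% (49.96 to 51.5), of Zfpm1 in 31.6% (30.9 to 32.4) and of Zfpm2 in 19.0% (18.3 to 19.6). Since 5 clusters with 6323 cells were shallow, cells were also thinned to 5000 UMIs each, which left 9077 cells. The shares were then 12.9%, 45.3%, 21.5% and 13.8%.

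Clusters were formed on all variable genes, so their differences are descriptions, and 4 of 11 took a name from markers. A cluster of 1291 cells (median 18228 UMIs) was extraembryonic endoderm-like, with 9 of 9 markers and a summed level of 14.9 UMIs per 10000 against 1.84 in the other cells. A cluster of 3056 cells (median 12095 UMIs) led by Igfbp5 and Upk3b was mesothelial-like (9.16 against 5.55), a cluster of 1482 cells (median 14053 UMIs) was interstitial-like (24.6 against 3.58), and a cluster of 66 cells (median 9749.5 UMIs) was neuron-like (28.0 against 0.147). The mesothelial sum was not particular to the cluster named for it. An unnamed cluster of 659 cells led by Rhox9 and Sct had 9.84 against 6.27. There 1 of 6 mesothelial markers was at least 2-fold higher than in other cells, against 3 of 6 in the mesothelial-like cluster. Unnamed clusters of 1354 cells (8.23 against 6.37), 2066 cells (7.90 against 5.97), 1031 cells (7.31 against 6.29) and 25 cells (7.83 against 6.41) also had raised sums. No cluster was named granulosa.

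Gata4 was concentrated in the extraembryonic endoderm-like cluster, which held 8.43% of the cells and 40.01% of the Gata4 UMIs. These shares are not corrected for depth, with a median of 18228 UMIs in this cluster against 9281 over all cells. Per 10000 UMIs, Gata4 reached 0.892 there against 0.331 over all cells. It was at 0.327 in the mesothelial-like, 0.0740 in the interstitial-like and 0.0784 in the neuron-like cluster. In thinned cells it was found in 36.9% (33.8 to 40.2) of the extraembryonic endoderm-like cells, 13.9% (12.6 to 15.2) of the mesothelial-like and 2.82% (2.02 to 3.82) of the interstitial-like cells. In neuron-like cells it was found in 2 of 39, or 5.13% (0.627 to 17.3), an interval that holds the interstitial-like share. The mesothelial-like share lies within that interval too, while its level of 0.327 (0.309 to 0.345) lies above that of the neuron-like cluster (0.0255 to 0.183). Whether neuron-like cells lack Gata4 is not known, so whether the interstitial-like share is background cannot be decided. An unnamed shallow cluster of 916 cells, led by Cited1 and S100g, had 0.466 UMIs per 10000 of Gata4. Its sum of extraembryonic endoderm markers was raised as well (6.81 against 3.73 in other cells). There 3 of 9 of these markers were at least 2-fold higher, against 7 of 9 in the extraembryonic endoderm-like cluster.

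Gata6 was spread more evenly than Gata4 over the mesothelial-like, interstitial-like and extraembryonic endoderm-like clusters, though not over all clusters. It had 1.88 UMIs per 10000 in the mesothelial-like, 1.61 in the interstitial-like and 1.61 in the extraembryonic endoderm-like cluster, and thinned shares of 51.0%, 49.2% and 51.8%. The neuron-like share was 7.69% of 39 cells (1.62 to 20.9), at a level of 0.345 UMIs per 10000. In the unnamed clusters the level ran from 0.269 (659 cells, led by Rhox9) to 1.64 (2066 cells).

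Zfpm1 and Zfpm2 differed in where they were found. Zfpm1 had its highest level in the extraembryonic endoderm-like cluster, with 0.942 UMIs per 10000 and a thinned share of 35.9% (32.8 to 39.1), against 0.571 and 22.9% in the mesothelial-like and 0.368 and 14.8% in the interstitial-like cluster. In neuron-like cells it was 25.6% of 39 (13.04 to 42.1), an interval that holds the shares of all 3 clusters. Whether neuron-like cells lack Zfpm1 is not known, so their share cannot serve as background for this gene. The interval of the extraembryonic endoderm-like share lay above those of the mesothelial-like and interstitial-like shares, whose upper limits were 24.5% and 16.8%. The Zfpm1 level of the extraembryonic endoderm-like cluster (0.904 to 0.982) lay above the neuron-like level of 0.439 (0.292 to 0.634), and the levels of the other two clusters lay within it. The highest Zfpm2 level, 0.749 UMIs per 10000 (0.660 to 0.847), was in an unnamed shallow cluster of 1354 cells with a median of 15.9% mitochondrial counts, of which 97 could be thinned, with a share of 27.8% (19.2 to 37.9). Among the named clusters, Zfpm2 was at 0.478 UMIs per 10000 and 18.6% (17.2 to 20.04) in the mesothelial-like and at 0.457 and 19.0% (17.0 to 21.1) in the interstitial-like cluster, and at 0.0438 and 1.84% (1.08 to 2.93) in the extraembryonic endoderm-like cluster. The neuron-like share was 2.56% of 39 cells (0.0649 to 13.48).

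**Figure D5:**
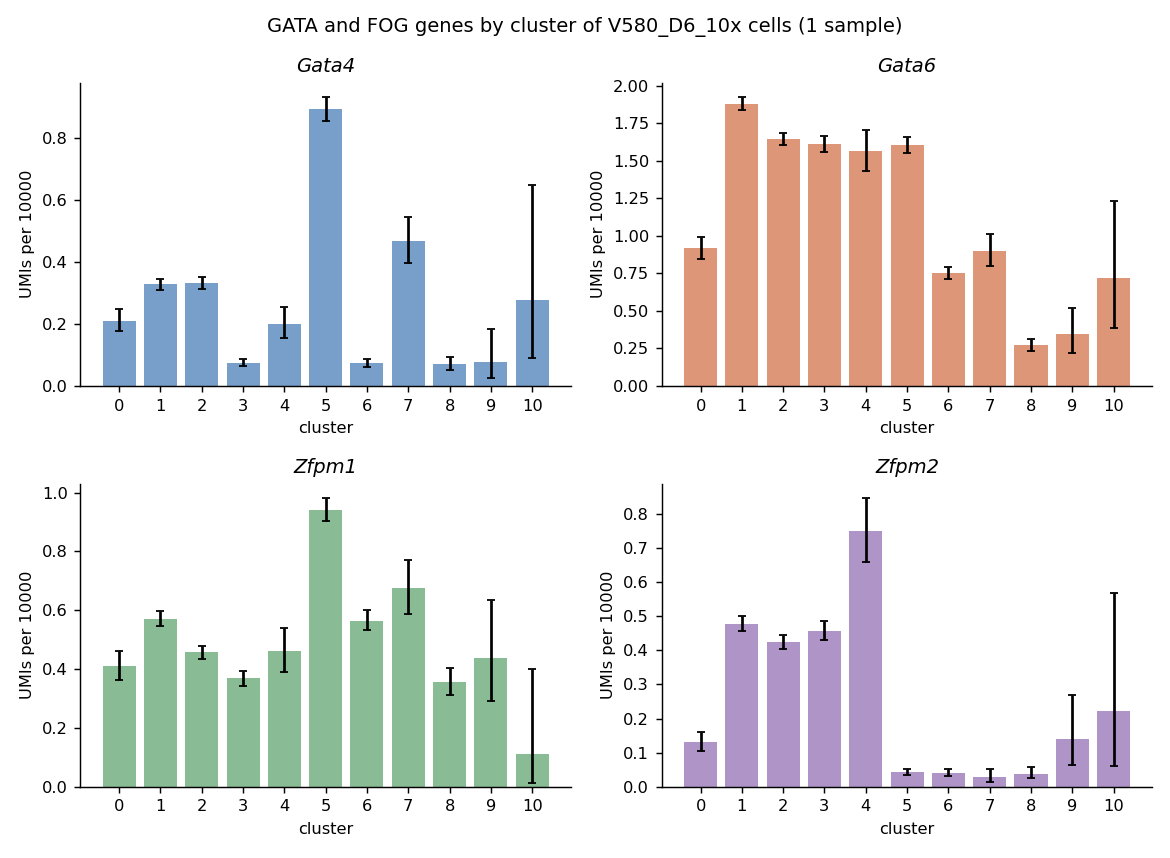
UMIs per 10000 of the 4 genes in the 11 clusters of the 10x library, with exact Poisson 95% intervals that cover counting error only. The extraembryonic endoderm-like cluster has the highest Gata4 (0.892) and Zfpm1 (0.942) and a Zfpm2 level of 0.0438, against 0.478 for Zfpm2 in the mesothelial-like cluster and 0.749 in cluster 4, an unnamed cluster rich in mitochondrial counts.

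In thinned cells, 7.16% held UMIs of both GATA factors, 5.78% of Gata4 without Gata6 and 38.1% of Gata6 without Gata4. Both FOG cofactors were found together in 2.40% of cells, Zfpm1 without Zfpm2 in 19.1% and Zfpm2 without Zfpm1 in 11.4%. Within the mesothelial-like cluster, Gata6 was found in 64.5% (60.3 to 68.5) of 544 cells with Zfpm2 and in 47.9% (45.9 to 49.9) of 2384 cells without it, and in 50.7% of 671 cells with Zfpm1 and 51.1% of 2257 cells without it. Such shares rest on 1 or a few UMIs per cell and are given as a description.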

How the data were processed

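For the GSC stages the authors deposited read counts per gene, made with HISAT2 on mm10 and featureCounts. The authors deposited FPKM for the V580 days, E12.5_GC and the treatments, without counts, so their depth is unknown; the submitters' processing notes name Trim Galore, FastQC, SAMtools and RSEM without versions or roles. The authors deposited UMI counts of 1 10x sample, made with Cell Ranger. A table of 10 columns that could not be matched to samples was not used here.

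Groups followed the sample labels. In R 4.3.3, counts passing filterByExpr were TMM-scaled and entered edgeR's quasi-likelihood test (version 4.0.16, 1 model of 8 libraries). The DESeq2 1.42.0 test, which the study used, was an alternative. FPKM were tested with limma 3.58.1 (trend) on log2(FPKM+1), for genes of at least 1 FPKM in 3 (days, 15 libraries) or 2 libraries (treatments, 16 libraries; 48 h to day 4, 31 libraries). Calls used a Benjamini-Hochberg adjusted p below 0.05. Lists were counted, not tested. The 10x counts were clustered in Python 3.11.15 with scanpy 1.11.5 (leidenalg 0.10.2, 2000 variable genes, 20 components, 20 neighbours, resolution 0.5, seed 0). No doublet caller was run, and the deepest barcode held 179817 UMIs. Replicate count libraries of a stage differed by more than counting noise. The chi-square per degree of freedom was 35.7 at E16.5, whose libraries lay in different lanes, and 5.80 to 6.66 at the other stages. FPKM allow no such check, and every library was counted as 1 sample. The edgeR test of the stages and the limma tests of the days and of the treatments were tried on simulated data with 2-fold changes. The other steps were not.

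The members and lists were chosen with earlier results of these data known. Beside the members, up to 3 genes per list and main comparison were named, those with the largest called change, no overlap between replicates and 5 CPM or FPKM or more in the higher group, plus Gata5, Nr5a1, Wt1, Foxl2, markers and the nearest genes. Mapped positions came from GENCODE vM21. Alternatives were another normalization, filter, pseudocount or scaling, a lane term, a length offset, a replicate block, fewer groups in the fit, a 2-fold threshold and leaving out each library. Values of some single genes on the lists or among the nearest patterns are not reported here.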

Additional observations from a re-analysis of the deposited data

Results flagged for a closer look

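There were 5 results that stood out because an effect differed between conditions by a test of the difference itself, in limma across all genes. Groups held 2 or 3 libraries, too few to look for single outlying libraries. At 24 h, the joint effect of Vc and AM580 on Gata6 lay below the sum of the single effects by -0.81 (SE 0.13, adjusted p = 0.035) on the log2(FPKM+1) scale, with Gata6 at 3.58 and 3.79 FPKM in AM580, 1.58 and 1.72 in V580, 0.356 and 0.370 in Vc and 0.343 and 0.4003 in Con.

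The difference between 24 h and 48 h in the effect of AM580 or V580 was tested after the data were seen. For Gata4 the AM580 effect was larger at 48 h than at 24 h by 1.44 (SE 0.14, adjusted p = 3.7e-06) and the V580 effect by 1.03 (SE 0.14, adjusted p = 8.6e-05). For Zfpm1 the AM580 effect was larger at 48 h by 0.54 (SE 0.10, adjusted p = 0.0010). For Gata6 the AM580 effect was smaller at 48 h, by -0.35 (SE 0.13, adjusted p = 0.044). In these comparisons 35% of genes were called for AM580 and 33.9% for V580. For V580, Gata6 (0.05, adjusted p = 0.78) and Zfpm1 (0.23, adjusted p = 0.096) did not pass. The Gata6 value changed sign with another pseudocount, as given under the processing.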

How the results depend on the processing

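Of 585 values of the 4 genes under another setting of the processing, 542 kept their direction and their side of the threshold, 36 crossed the threshold and 7 changed sign, and the cause was not tested unless named. At the stages, Gata6 at E16.5 against E12.5 was called with DESeq2 (-0.38), median-of-ratios size factors (-0.37), no filter (-0.37), a length offset (-0.42) and the replicate block (-0.36). The lane term rests on the pair of E16.5 libraries, since no other stage had both lanes. With a lane term, Gata6 at P6w was not called against E12.5 (-0.42) or E16.5 (-0.22) and changed sign against E13.5 (0.25), Zfpm1 at P6w against E12.5 (-1.21) and Gata4 at P6w against E13.5 (-0.28) were not called, Gata6 at E16.5 against E13.5 was called (0.47), and Zfpm2 at E16.5 against E12.5 changed sign (0.13). With a length offset, Gata6 at E16.5 against E13.5 (-0.038) and Zfpm2 at P6w against E13.5 (-0.24) changed sign, Gata6 at P6w against E16.5 (-0.21) was lost and Gata4 at E16.5 against E13.5 was called (-0.36), as it was with DESeq2 (-0.29). Zfpm1 at E16.5 against E13.5 was lost with DESeq2 (0.79), the length offset (0.78), the replicate block (0.80) and a fit of those 2 stages alone (0.80). Such a fit also called Gata4 at E13.5 against E12.5 (-0.20) and lost Gata6 at P6w against E16.5 (-0.42).

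With only the 2 groups compared in the fit, which leaves fewer libraries, the calls against E12.5_GC were lost for Gata6 at days 8 and 10 (-0.25 and -0.21), Zfpm1 at day 8 (0.35) and Zfpm2 at day 10 (-0.41), and Zfpm1 from day 8 to day 10 was called (0.30). A pseudocount of 0.1 changed the sign of 3 values, the 48 h interaction of Gata4 (0.29), the change of Gata4 from 24 h to 48 h in Vc (-0.0046) and the difference in the AM580 effect on Gata6 between times (0.24). It also lost the 24 h interaction of Gata6 (-1.09) and its change from 24 h to 48 h in V580 (-0.38), and called the difference in the V580 effect on Gata6 between times (0.71) and Zfpm2 from 48 h to day 4 (0.48). The 24 h interaction of Gata6 (-0.81) was also lost without a filter, with the replicate block and with 1 time point in the fit. Median-centred values lost Gata6 from 24 h to 48 h in V580 (-0.13) and its difference in the AM580 effect between times (-0.30), and called Zfpm1 from 24 h to 48 h in V580 (0.20).

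Replicate numbers were shared between groups. Same-numbered libraries deviated together (correlation over 0.1) in 0 of 12 pairs at the stages, 9 of 30 along the days and 14 of 56 in the treatments. The highest correlations were 0.067, 0.39 and 0.21. With so few libraries these values cannot decide whether the numbers pair the libraries, and the main models left pairing out. The replicate block changed, beside the calls above, the difference in the AM580 effect on Gata6 between times (-0.35, lost) and Zfpm1 from day 8 to day 10 (0.30, called).

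Leaving out each library in turn kept direction and call in 1477 of 1556 values. At the stages, without replicate 1 of E16.5, Gata6 at E16.5 against E12.5 and Gata4 at E16.5 against E13.5 were called and Gata6 at P6w against E16.5 was lost, as it was without replicate 1 of P6w. Without replicate 2 of E16.5, Gata6 at E16.5 against E13.5 and Gata4 at P6w against E16.5 were called and Zfpm2 at E16.5 against E12.5 changed sign. Gata4 at E16.5 against E12.5 was lost without either E12.5 library, Gata4 at P6w against E13.5 without replicate 1 of E13.5, and Zfpm1 at E16.5 against E13.5 without any of 6 libraries. Zfpm2 at P6w against E13.5 changed sign without replicate 2 of either stage. The ranges were -0.51 to -0.35 (Gata4) and -0.55 to -0.20 (Gata6) and -0.44 to 0.13 (Zfpm2) at E16.5 against E12.5, -0.37 to -0.18 (Gata4), 0.14 to 0.48 (Gata6) and 0.51 to 1.06 (Zfpm1) at E16.5 against E13.5, -0.55 to -0.37 (Gata4) and -0.17 to 0.21 (Zfpm2) at P6w against E13.5, and -0.25 to -0.087 (Gata4) and -0.57 to -0.22 (Gata6) at P6w against E16.5. Against E12.5_GC, Zfpm1 ranged from 0.027 to 0.29 at day 4 (called without replicate 1 of E12.5_GC) and from 0.22 to 0.48 at day 8 (lost without replicate 3 of E12.5_GC or replicate 1 of day 8). Zfpm2 at day 8 ranged from -0.10 to 0.22, negative without replicate 1 or 2 of E12.5_GC and called without replicate 3. Gata6 at day 10 ranged from -0.26 to -0.13 (lost without replicate 3 of E12.5_GC or replicate 2 of day 10). Zfpm1 from day 4 to day 6 ranged from 0.24 to 0.37 and was lost without any of 8 libraries, and from day 8 to day 10 it ranged from 0.24 to 0.39 and was called without any of 5. At 24 h, Gata4 with AM580 ranged from 0.35 to 0.49 (lost without replicate 2 of AM580 or of Con), and Gata6 with Vc (-0.039 to 0.021, without replicate 1 of Con), Zfpm1 in V580 against AM580 (-0.23 to 0.0069, without replicate 1 of AM580) and Gata4 in V580 against Vc (-0.13 to 0.0023, without replicate 2 of Vc) changed sign. At 48 h, Gata4 with Vc ranged from -0.69 to -0.40 (lost without replicate 2 of Vc), Gata6 in V580 against AM580 from -0.58 to -0.26 (lost without replicate 2 of either), and the interaction of Gata6 from -0.55 to -0.23 (called without replicate 1 of AM580). From 24 h to 48 h, Gata6 in Con ranged from -0.32 to -0.26 (lost without replicate 1 of Con at 24 h) and in V580 from -0.30 to -0.17 (lost without replicate 2 of either time), and Gata4 in Vc from -0.13 to 0.16 (negative without replicate 1 of either time). The 24 h interaction of Gata6 ranged from -0.85 to -0.77 and was lost without any of 14 libraries, its AM580 effect at 48 h minus 24 h ranged from -0.51 to -0.19 and was lost without any of 11, and its V580 effect ranged from -0.015 to 0.12, negative without replicate 1 of V580 at 48 h.

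Counts of all genes called moved by over 1.5 times with a 2-fold threshold at the stages (2785, 2752, 4924, 4285, 5845 and 5339 genes, against 7530, 6160, 8673, 8865, 9786 and 9206), for Vc at 24 h with 1 time point in the fit (866 against 1443) and for the 24 h interaction (1, 1 and 0 against 4, without a filter, with the block and with 1 time point). In the 10x library the shares of cells with a UMI of Gata4, Gata6, Zfpm1 and Zfpm2 were 24.6%, 62.8%, 39.9% and 24.3% with at least 1000 genes per cell, 29.2%, 73.1%, 46.2% and 28.9% without the 5 shallow clusters (chosen after the data were seen) and 12.9%, 45.3%, 21.5% and 13.8% after thinning, and Gata6 was at 51.8% with at most 20% mitochondrial counts. FPKM carry no depth, so counting error cannot be given for them.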
